A study of Mus musculus with 4 samples.

Results

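Cytosolic ribosomal proteins are the protein subunits of the ribosome that translates nuclear messages. Their genes were taken by symbol, as every deposited gene named Rpl or Rps with a number and at most a closing a, x or l, together with Rplp0, Rplp1, Rplp2 and Rpsa. Kinase genes named Rps6k were left out. The rule found 79 of the 13772 genes, 31 of the small and 48 of the large subunit. They were measured in single mouse muscle stem cells, young or aged, grown on soft or stiff substrate.

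The small subunit decodes the message and the large subunit forms the peptide bond, and each ribosome holds mostly a single copy of each protein. Ribosomal protein messages are among the most abundant and stable in a cell, and growth signals through mTOR control their translation by way of a run of pyrimidines at the 5′ end. In muscle, proliferating progenitors are rich in ribosomes, and ribosome production falls as they stop dividing and fuse. A few genes have paralogs, of which Rpl3l is restricted to heart and skeletal muscle.

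All cells carried the labels wild type and C57BL/6, came from skeletal muscle, and spent 7 days in medium with 10% serum on polydimethylsiloxane, a silicone elastomer, of 12 kPa (soft) or 29 kPa (stiff). Values below are in the order young on soft, young on stiff, aged on soft and aged on stiff unless stated. Neither the age in months nor the number of animals is given by the labels. With 1 library per group, no difference between libraries has a replicate check. Such differences are given with counting intervals only, which leave out the variation between cultures and animals. The libraries held 1360, 1479, 1333 and 1738 cells after filtering, with a median of 35607, 28611, 33315 and 37081 UMIs (molecules counted once each) per cell. A single cell barcode was shared, between young soft and aged stiff. Muscle markers were high in every library, with a summed 4557 to 6528 CPM for 7 muscle stem cell markers and 24346 to 46321 CPM for 7 markers of differentiating muscle. Most of the stem cell marker sum came from Des, at 3107, 3453, 4487 and 5074 CPM. Pax7, which marks muscle stem cells, had 72.7, 66.2, 41.8 and 32.0 CPM. Myf5 had 109, 81.9, 63.3 and 56.0 CPM and Myod1 897, 943, 923 and 904 CPM. Des was higher, and Pax7 and Myf5 were lower, in both aged libraries than in both young ones. Summed markers of other cell types were 0.0232 to 0.202 CPM for endothelial cells, with 2, 2, 0 and 1 of the 3 measured markers at 0. They were 1.35 to 7.02 CPM for 6 immune markers, of which 3, 2, 0 and 0 were at 0, and 1.52 to 2.48 CPM for 3 Schwann cell markers, of which none was at 0. They reached 35.6 to 61.6 CPM for 6 fibroblast markers, of which 0, 0, 1 and 0 were at 0, and 25.7 to 65.4 CPM for 3 smooth muscle and pericyte markers, of which none was at 0.

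The level of a gene is its mean CPM over cells, with the UMI counts of a cell scaled to a total that is the same for every cell. A pair of divisions of the cells was used within every library. Cells with at least 1 UMI of Mki67, a gene transcribed in cycling cells, were set against the others, and made up 26.8, 23.9, 9.83 and 7.88% of cells. In Myog-high cells, which as differentiating cells should mostly not cycle, 6.32, 6.2, 2.76 and 4.2% had such a UMI, at a median depth of 40366, 31995, 35386 and 38345.5 UMIs. Cells were also divided into low, middle and high by their level of Myog, the gene of the transcription factor myogenin that drives differentiation, with cuts at 407 and 1819 CPM that give groups of equal size over all 5910 cells. Within 10% of these cuts lay 112 and 342 cells. Each class is a range of Myog level and not a cell type, and the classes need not follow each other in time. Mean Myog was 44.5, 35.9, 79.6 and 113 CPM in Myog-low, 1131, 1106, 1035 and 1023 CPM in Myog-middle and 3814, 3844, 4235 and 4043 CPM in Myog-high cells.

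The 5′ ends of some of the members the results turn on are shown first. A start at C within a pyrimidine run is the known mark of translationally controlled ribosomal protein messages. Each window runs from 10 bases before the annotated RefSeq start (GRCm38.p6) to 20 bases from it, with capitals for a run that begins with C at the start and goes on for at least 4 bases of C or T on the transcribed strand.
Rpl35 (chr2:39005112-39005141, minus strand): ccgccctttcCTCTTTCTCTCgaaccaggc
Rpl38 (chr11:114668570-114668599, plus strand): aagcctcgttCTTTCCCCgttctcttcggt
Rps27 (chr3:90213629-90213658, minus strand): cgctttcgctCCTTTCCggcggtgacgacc
Rps27l (chr9:66946076-66946105, plus strand): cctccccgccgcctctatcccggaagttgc
Rpl27 (chr11:101442235-101442264, plus strand): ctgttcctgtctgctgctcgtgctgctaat
Rps2 (chr17:24720053-24720082, plus strand): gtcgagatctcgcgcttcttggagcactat
Rpsa (chr9:120127756-120127785, plus strand): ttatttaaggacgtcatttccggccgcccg
Rpl10a (chr17:28328461-28328490, plus strand): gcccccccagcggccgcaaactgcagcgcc
Rpl12 (chr2:32961702-32961731, plus strand): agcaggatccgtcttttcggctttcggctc
Rpl3l (chr17:24727816-24727845, plus strand): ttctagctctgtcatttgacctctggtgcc
Among the members shown, Rpl35, Rpl38 and Rps27 had the run at the annotated start and the other 7 did not. Of members described below and not shown, Rpl14, Rpl28, Rps18 and Rps21 had it. Rpl41, Rpl13a, Rpl7a, Rps4x and Rps16, among others, did not, and Rpl3 and Rpl36 matched no start. Of the 79 members, 59 matched a RefSeq start, and 13 of these (22.0%) had the run, against 3.01% of 27025 genes with a promoter entry. The share was 6 of 23 in the small and 7 of 36 in the large subunit. None of 12 genes on a list of elongation factors and proteins near them had it, nor did any of 69 mitochondrial ribosomal proteins with a start. These are matches at annotated starts, which can lie some bases from those used in muscle cells. A gene without a match here can therefore still carry the run, and the shares are not counts of controlled messages.

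The members were expressed at high and even levels. In every library 75 of the 79 had at least 500 CPM, and 50 were among the 100 highest genes. Since 3′ counting gives each molecule 1 UMI whatever its length, levels of different genes were set side by side without a length correction. Rpl41, which encodes the shortest ribosomal protein, was highest in each library, at 6017, 6367, 6709.5 and 6216 CPM. Rps29 of the small subunit followed at 5630.4, 5515, 5357 and 4945 CPM. Lowest of the members above 20 CPM were Rpl31 at 609, 563, 584 and 571 CPM, Rpl27 at 274, 220.4, 274 and 329 CPM and Rpl13a at 227, 239, 249 and 232 CPM. Levels of members that share much sequence with other genes, Rpl27 among them, are uncertain, as described below. The paralogs Rpl3l and Rpl39l stayed under 20 CPM in all libraries, which left 77 members for comparisons. In 72 of these 77 the highest library exceeded the lowest by less than 25%, and the median of this ratio was 1.09.

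Ribosomal protein messages took close to the same share of a cell's UMIs in all libraries, 15.8, 15.9, 16 and 15.5%, with an SD over cells of 3.44, 3.55, 3.46 and 3.57 percentage points. That SD describes single cells and is not the error of a library's mean, and no replicate gives the spread between cultures. With the sarcomere genes described below left out of the total, the share was 16.9, 17.1, 17.8 and 17.5%, higher in both aged libraries than in both young ones. Small subunit members gave 6.86, 6.93, 6.78 and 6.51% and large subunit members 8.96, 9.01, 9.21 and 9.0%. The ratio of small to large subunit UMIs was 0.765, 0.769, 0.736 and 0.724, lower in both aged libraries than in both young ones. It was also lower in the aged library than in the young one on the same substrate within Mki67-detected cells (0.787, 0.797, 0.782 and 0.773), Myog-low cells (0.780, 0.789, 0.759 and 0.744), Myog-middle cells (0.747, 0.746, 0.717 and 0.708) and Myog-high cells (0.758, 0.759, 0.738 and 0.727). Scaling does not enter this ratio, but a few strong members do, among them Rps2 and Rpsa, described below.

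Within each library the share differed by cell class, and Myog-middle cells had the lowest. The mean share was 16.6, 16.7, 17.4 and 16.9% in Myog-low, 14.6, 14.5, 15.2 and 14.6% in Myog-middle and 15.7, 16, 15.8 and 15.7% in Myog-high cells. Myog-middle cells were thus below Myog-low cells in 4 of 4 libraries, with a difference of -2.19 ± 0.141 percentage points (SD, n = 4 libraries; exact two-sided sign-flip permutation p = 0.13, the smallest that 4 libraries allow, and 0.136 after Benjamini-Hochberg adjustment over 12 such tests). Cells that were Myog-low with no Mki67 UMI had 17.2, 17.4, 17.7 and 16.9%, above the Mki67-detected cells, at 16, 16, 16.6 and 16.7%. Sarcomere messages moved with these classes. The set called sarcomere genes here was taken by symbol and is wider than the sarcomere. Its rule also takes in the fusion genes Mymk and Mymx, the enzyme genes Ckm, Pgam2 and Eno3, the calcium pump gene Atp2a1 and Cryab. It takes every Myh gene with a number as well, those of non-muscle myosins included. In the same order of libraries, 55 sarcomere genes took 0.998, 1.14, 3.61 and 5.9% of UMIs in Myog-low, 12.2, 12.7, 14.6 and 15.3% in Myog-middle and 10.3, 10.5, 11 and 11.5% in Myog-high cells. The middle class thus had a higher sarcomere share than the high class in every library, and it cannot be read as a step between low and high. With the sarcomere genes left out of the total, the ribosomal protein share was 16.8, 16.9, 18.1 and 17.9%, 16.6, 16.6, 17.7 and 17.2% and 17.4, 17.8, 17.7 and 17.7% in the low, middle and high cells. Myog-middle cells were then below Myog-low cells in 4 of 4 libraries, with a difference of -0.372 ± 0.249 percentage points (exact permutation p = 0.13), whereas Myog-high cells were above Myog-low cells in both young libraries and below them in both aged ones.

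The balance of the subunits moved with the classes too. On the log2 scale the small to large ratio was higher in Mki67-detected than in other cells by 0.0817 ± 0.0232 (SD, n = 4 libraries), in 4 of 4 libraries. It was lower in Myog-middle than in Myog-low cells, with a difference of -0.0740 ± 0.00844 and lower in Myog-high than in Myog-low cells, with a difference of -0.0417 ± 0.00943, in 4 of 4 libraries each. For each of these 3 differences the exact sign-flip permutation p was 0.13, the smallest possible, and 0.136 after adjustment. Among cells without Mki67 UMIs the difference between Myog-high and Myog-low was -0.0253 with the same Myog cuts, an alternative added after the data were seen. It was -0.00770 with tertiles drawn anew among those cells, whose cuts lie higher, at 712 and 2126 CPM.

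**Figure D1:**
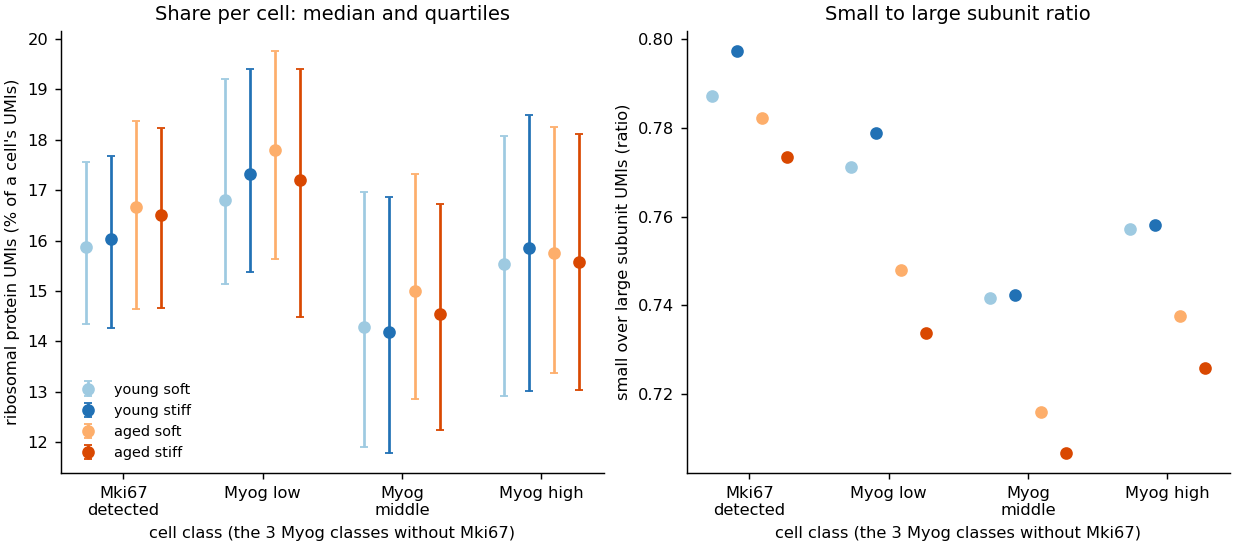
Share of a cell's UMIs from ribosomal protein genes (left, median with lower and upper quartile over cells, in percent) and ratio of small to large subunit UMIs (right, from the mean shares) in 4 cell classes of the 4 libraries, the Myog classes holding only cells without Mki67 UMIs. The share is lowest in Myog-middle cells in every library, and the ratio is lower in the aged than in the young library on each substrate in every class.

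The contrast of Myog-middle with Myog-low cells, chosen after the data were seen, held the largest changes of single members. Of the 77 members, 57 fell and 4 rose (limma with the library as block, adjusted p under 0.05 over all genes), while 56.1% of the 6554 genes tested (83.9% changed in all) fell and 27.8% rose. The median change was -0.22 (log2) for the members and -0.27 for all genes. In the small subunit 25 of 31 members fell and none rose, and in the large subunit 32 of 46 fell and 4 rose. Without the sarcomere genes in the total, 28 fell, 12 rose and the median was -0.050, where 35.7% of all genes rose and 46.4% fell.

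Rpl3, whose protein reaches into the peptidyl transferase centre, fell most. It had 1581, 1628, 1589 and 1427 CPM in Myog-low, 710.5, 709, 668 and 665 CPM in Myog-middle and 1154, 1223, 1290.3 and 1289 CPM in Myog-high cells. Its level in Myog-middle cells was thus below that in either other class in all 4 libraries. The log2 change from low to middle was -1.17 ± 0.043 (SE, limma adjusted p = 1.83e-05), and it was -1.02 without the sarcomere genes in the total. Rpl10a, the protein of the L1 stalk that helps release deacylated tRNA, had 1467, 1529, 1587 and 1497 CPM in Myog-low and 862, 892, 848 and 867 CPM in Myog-middle cells. Its level was between the other classes in Myog-high cells, at 1142, 1233, 1272 and 1309 CPM, and its log2 change from low to middle was -0.81 ± 0.043 (limma adjusted p = 4.13e-05). Rpl13a (change -0.74), Rpl12 at the base of the stalk that binds elongation factors (-0.71) and Rpl7a (-0.61) came next. In the small subunit the largest fall was that of the X-linked Rps4x, by 0.59 on the log2 scale.

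The 4 members that rose in Myog-middle cells were all of the large subunit: Rpl41, Rpl35, Rpl36 and Rpl38. Rpl41 went from 5693, 5818, 6242 and 5906 CPM in Myog-low to 6939, 7487, 8004 and 6943 CPM in Myog-middle cells, a log2 change of 0.31 ± 0.038 (limma adjusted p = 6.40e-04). In Myog-high cells it had 5769.8, 6189.5, 5672 and 5472 CPM. Rpl38, loss of which causes the short-tailed mouse mutant with altered skeletal patterning, went from 2260.4, 2131, 2519 and 2499 CPM to 2590.5, 2521, 2970.4 and 2837 CPM. Its change was 0.21 ± 0.035 (limma adjusted p = 0.00206), and the changes of Rpl35, at the exit tunnel, and Rpl36 were 0.24 and 0.22.

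**Figure D2:**
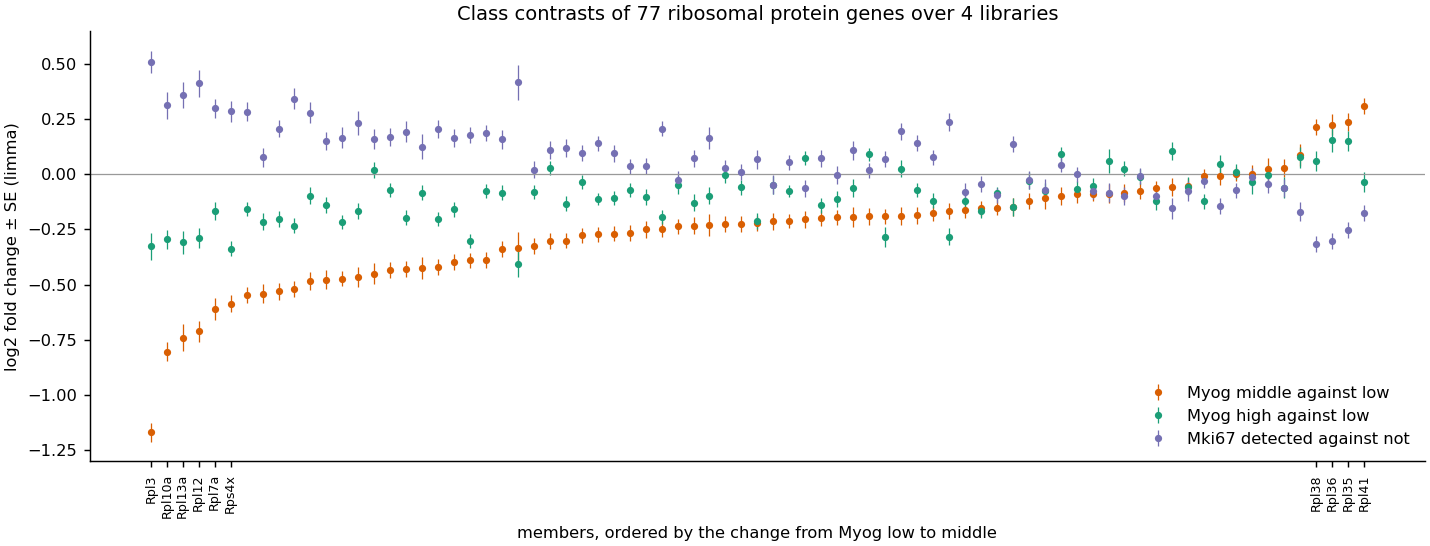
Log2 fold change (limma, ± SE over 4 libraries) of the 77 members in 3 contrasts of cell classes, ordered by the change from Myog-low to Myog-middle cells, with names for 10 members described in the text. Rpl3 lies lowest at -1.17 and Rpl41 highest at 0.31.

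Myog-high cells differed less from Myog-low cells. Here 37 of 77 members fell and 4 rose, against 50.5% and 24.9% of the 6477 genes tested, with a median of -0.083 for members and -0.17 for all genes. In the small subunit 17 of 31 fell and 1 rose, in the large subunit 20 of 46 fell and 3 rose. The largest falls were those of Rps27l (-0.41 ± 0.060, limma adjusted p = 0.00205), Rps4x (-0.34), Rpl3 (-0.33), Rpl13a (-0.31) and Rpl28 (-0.30). Rpl36 (0.16, limma adjusted p = 0.0492), Rpl35 (0.15), Rps27a, which is made as a fusion with ubiquitin (0.091), and Rpl14 (0.091) rose, with adjusted p between 0.027 and 0.0492. The counts depended on the total, on the cells and on single libraries. Without sarcomere genes in the total 11 fell and 14 rose, where 31.4% of all genes rose and 41.1% fell. Among cells without Mki67 UMIs 44 fell and 0 rose with the same Myog cuts (limma, where 23.9% of all genes rose and 44.4% fell). With tertiles drawn anew among those cells 10 fell and 1 rose, where 21.7% of all genes rose and 34.4% fell. Without young soft 21 fell, without young stiff 23, without aged soft 22 and without aged stiff 27, and 0, 0, 0 and 2 rose.

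**Figure D3:**
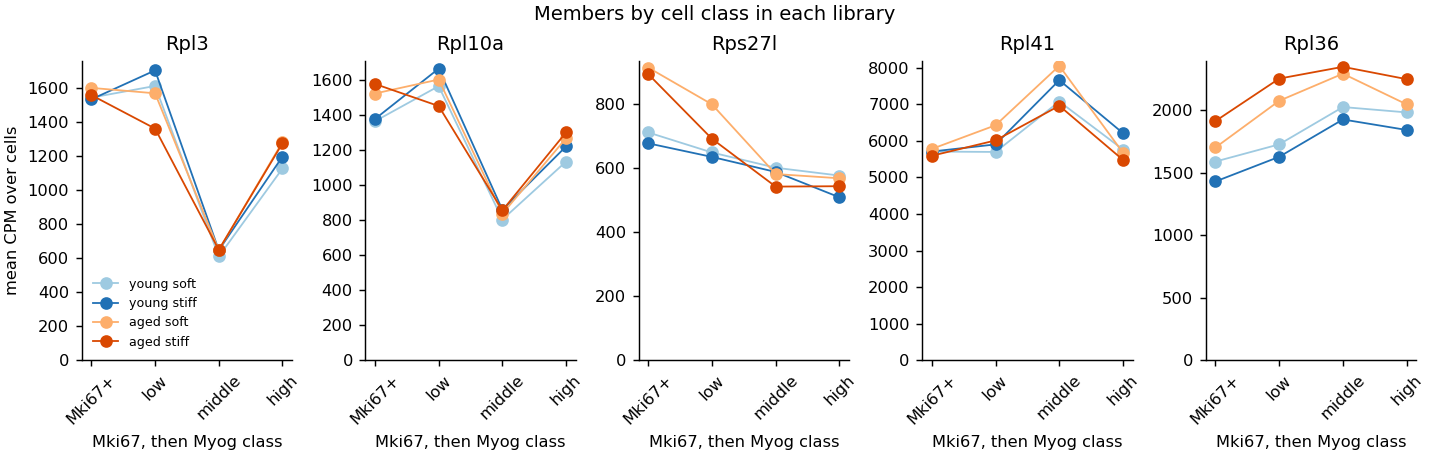
Mean CPM of 5 members in Mki67-detected cells (Mki67+) and in the 3 Myog classes of cells without Mki67 UMIs, a line for each library, with axes from 0. Rpl3 and Rpl10a are lowest in Myog-middle cells in every library, and Rpl41 is highest there in every library.

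Mki67-detected cells had more of many members than the other cells, while among Myog-low cells few members were higher in detected cells. Over all cells 33 of 77 rose and 9 fell, while 55.6% of 6649 genes rose and 25.9% fell, and the median was 0.072 for members and 0.25 for all genes. The members' share of calls higher was thus below that of all genes. In the small subunit 16 of 31 rose and 1 fell, in the large subunit 17 of 46 rose and 8 fell. Rpl3 was highest, with 1544, 1534, 1602 and 1559 CPM in detected and 1119, 1174, 1083 and 1005 CPM in the other cells, a change of 0.51 ± 0.050 (limma adjusted p = 9.04e-05). Rps27l (0.42), Rpl12 (0.41), Rpl13a (0.36) and Rps16 (0.34) followed. Rpl38 fell from 2514, 2419, 2724 and 2697 CPM in the other cells to 2101, 1949, 2144 and 2109 CPM in detected cells, a change of -0.32 ± 0.036 (limma adjusted p = 1.81e-04). Rpl36 (-0.30), Rpl35 (-0.25), Rpl41 (-0.18) and Rps25 (-0.17) fell as well. The 4 members that rose in Myog-middle cells thus all fell in this contrast, with which that contrast shares cells. Without aged soft 21 members rose, where 52.2% of all genes did, and without young stiff 5 fell, where 24.1% of all genes did.

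Detected and other cells also differed in sarcomere share and in depth. Sarcomere genes took 1.04, 0.906, 1.59 and 1.97% of UMIs in detected and 8.79, 9.13, 11.3 and 12.7% in the other cells, and the median depth was 34586, 28523, 28772 and 28384 and 35937, 28656.5, 33967.5 and 37697 UMIs. Without the sarcomere genes in the total, 12 members rose and 36 fell, where 46.7% of all genes rose and 33.5% fell. The median of the members was then -0.062 and that of all genes 0.12. Within Myog-low cells, a contrast added after the data were seen, 2 members rose and 20 fell, against 30.4% and 17.4% of all genes, with a median of -0.061. Rps27l rose there by 0.26 ± 0.073 (limma adjusted p = 0.0255). Rpl3 changed by 0.035 ± 0.078 (limma adjusted p = 0.73) and Rpl38 fell again, by 0.27 on the log2 scale. The counts in Myog-low cells rest on few cells in the aged libraries, 104 and 89 detected ones. Without young soft, young stiff or aged soft they were 0, 1 and 0 higher and 5, 4 and 2 lower, and without aged stiff 2 higher and 27 lower. Of all genes 26.4, 24.4, 20.3 and 28.2% were higher and 13.4, 13.4, 9.80 and 18.2% lower in the same order.

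The paralogs ending in l or x followed different courses. Rpl3l, the striated muscle form of Rpl3, was rare, with 22, 23, 44 and 89 UMIs in 22, 21, 39 and 81 cells of the 4 libraries. Its share of cells was 1.62, 1.42, 2.93 and 4.66% (exact 95% binomial interval 1.02 to 2.44% in young soft and 3.72 to 5.76% in aged stiff). By class it was 0.677, 0, 0.562 and 2.7% of Myog-low, 2.76, 3.69, 4.94 and 5.93% of Myog-middle and 2.03, 1.45, 2.55 and 4.37% of Myog-high cells, at median depths of 30789, 24121, 24132 and 27137, 38219.5, 30339, 37304.5 and 40444 and 40366, 31995, 35386 and 38345.5 UMIs. For the 0 of 616 Myog-low cells in young stiff, the share of 3 counts is 0.487% of cells with a UMI. The upper end of the exact 95% binomial interval is 0.597%. Neither limits the share of cells that express the gene. Myog-low cells are the class that should hold least of it, and in each library the Myog-middle class, where Rpl3 was lowest, had the highest share and CPM. Even there Rpl3l had only 0.726 (young soft) to 1.45 CPM (aged stiff) beside 710.5, 709, 668 and 665 CPM of Rpl3. The aged libraries had more than the young, with UMI ratios of 2.12 (95% 1.24 to 3.71) on soft and 2.49 (95% 1.56 to 4.13) on stiff, while Myog-middle cells made up 24, 25.6, 38 and 43.7% of cells.

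Rps27l, a p53-responsive paralog of Rps27, had 633, 595, 650.4 and 597 CPM, and Rps27 had 2214, 1936, 2212 and 2221 CPM. In Mki67-detected cells Rps27l reached 711, 677, 914 and 893 CPM, against 605, 569, 622 and 572 CPM in the other cells, and was higher in 4 of 4 libraries. Rps27 changed by -0.081 ± 0.040 in that contrast (limma adjusted p = 0.103), and fell within Myog-low cells by 0.22 (limma adjusted p = 0.0128). The difference between the paralogs was not tested. Rps4x had 2065, 2156, 1860.0 and 1794 CPM, and its fall with Myog is given above. Rpl39l, best known from testis, had 7, 3, 3 and 7 UMIs in all, too few for any comparison, while Rpl39 had 3347, 3019, 3223 and 3228 CPM.

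Between substrates the members differed little. In young cells 1 of 77 had a log2 ratio beyond 0.32 in either direction between stiff and soft (a difference of 25%, the threshold used between libraries), as did 0.779% of 6034 genes, and the median log2 ratio was 0.010. In aged cells 0 of 77 passed it, as did 2.20% of 5552 genes (0.432% higher and 1.77% lower), and the median was -0.047, with 63 members below 0. Under a median-of-ratios scaling this median was 0.0046, with 34 members below 0. The member past the threshold was Rpl35, at 1306, 1037, 1266 and 1431 CPM, with a log2 ratio of -0.33 in young cells and a UMI ratio of 0.797 (95% 0.787 to 0.806). In aged cells its log2 ratio was 0.18. Rpl27, at 274, 220.4, 274 and 329 CPM, also had opposite signs, -0.31 in young and 0.26 in aged cells. Both genes were lowest in young stiff and highest in aged stiff, in Mki67-detected cells and in each Myog class too. Young stiff had the lowest and aged stiff the highest median depth per cell, and in cells of 20000 to 50000 UMIs the log2 ratios of Rpl27 were -0.33 and 0.27 and those of Rpl35 -0.31 and 0.18. Rpl29 (0.22) and Rps2 (0.20) had the highest ratios in young cells, and Rps28 (-0.19) and Rps18 (-0.16) the lowest in aged cells.

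Between ages the ratios of the members were spread over a narrow range. On soft substrate 0 of 77 passed this threshold, while 37.9% of 6147 genes did, and on stiff 5 of 77 passed it, while 40.6% of 6047 genes did. The members' median log2 ratio was 0.014 on soft and -0.044 on stiff, that of all genes -0.12 and -0.13. A median-of-ratios scaling moved the median of all genes to 0.044 and 0.047, and the members' medians to 0.19 and 0.14. On that scale 75 and 68 of 77 members lay above 0, against 44 and 32 on the main scale, and 7 and 8 passed the threshold, all higher, while 20.2% and 21.8% of all genes passed it higher. Without the sarcomere genes in the total the members had medians of 0.070 and 0.027. The SD of the log2 ratios over the 75 members of at least 500 CPM was 0.0942 on soft and 0.145 on stiff, over 177 and 176 other genes of that level 0.417 and 0.481. The age comparisons on soft and on stiff share no library. The members' ratios on soft and on stiff had a Pearson r of 0.55 over 77 members, which share cells and totals within a library. On the main scale 51 of 77 had the same sign in both, 25 higher and 26 lower in aged, and these signs depend on the scaling, as above. The same values over all genes are not given here, so no trait particular to the members can be read from them.

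**Figure D4:**
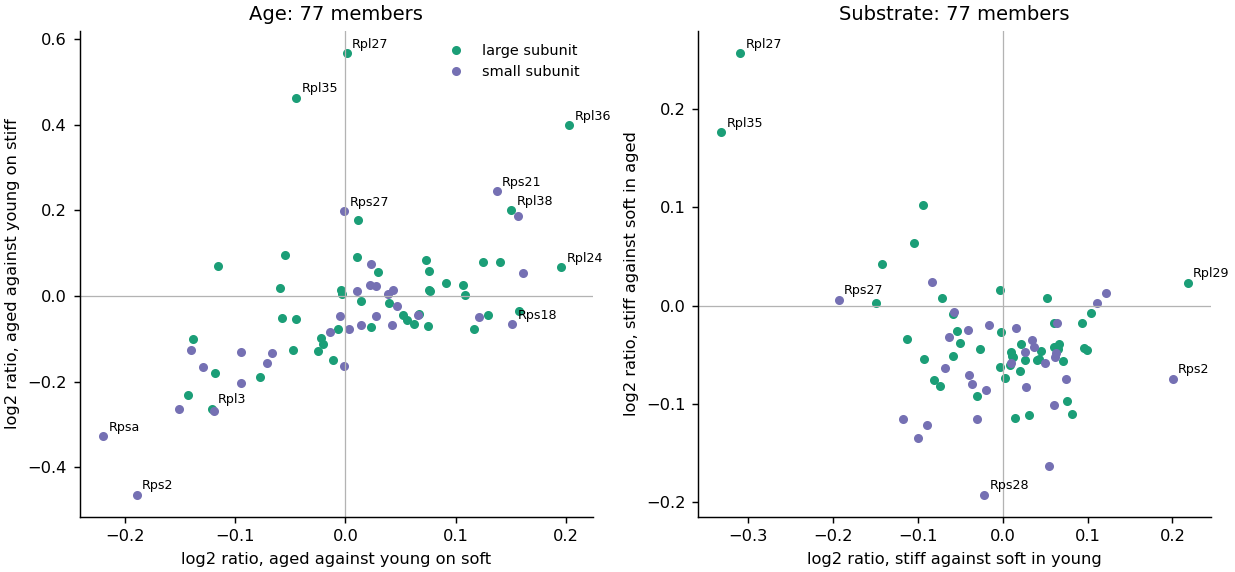
Log2 ratios of mean CPM for the 77 members, aged against young on soft (x) and stiff (y) substrate (left), and stiff against soft in young (x) and aged (y) cells (right), small and large subunit in separate colours. Rps2 and Rpsa lie low and Rpl36 lies high in both age comparisons, and Rpl27 and Rpl35 lie apart in the substrate plot.

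The 5 members past the threshold between aged and young on stiff were Rpl27, Rpl35 and Rpl36, higher in aged, and Rps2 and Rpsa, lower in aged. Rpl27 had a log2 ratio of 0.57 and Rpl35 one of 0.46, while on soft these were 0.0012 and -0.045. Rpl36, at 1829.9, 1715, 2107 and 2263 CPM, was above both young libraries in both aged ones, with ratios of 0.20 on soft and 0.40 on stiff. Rps2, which lines the entry channel for the message, had 3376, 3879, 2959.7 and 2810.5 CPM. Rpsa, also known as the laminin receptor, had 3553, 3836, 3049 and 3055 CPM. Both aged libraries were below both young ones for these 2 genes, with log2 ratios of -0.19 and -0.46 for Rps2 and -0.22 and -0.33 for Rpsa, on soft and stiff. Under the median-of-ratios scaling these were -0.016 and -0.28 for Rps2 and -0.047 and -0.15 for Rpsa, short of the threshold. The share of all genes with both aged libraries on 1 side of both young ones is not given here. On the main scale 11.1% of all genes were higher and 29.5% lower past the threshold on stiff. On stiff the UMI ratio was 1.49 (95% 1.46 to 1.53) for Rpl27, 1.33 (95% 1.32 to 1.34) for Rpl36 and 0.727 (95% 0.723 to 0.732) for Rps2, intervals of counting error only. The same order of ages held in Myog-low cells, at 3716, 4254, 3276 and 3099 CPM of Rps2 and 3857, 4119, 3486 and 3450.4 CPM of Rpsa. It held in Myog-high cells as well, at 3144, 3730.4, 2831 and 2820.3 CPM and 3165, 3543, 2703 and 2880.0 CPM. Rpl24 (0.20) on soft and Rps21 (0.24) and Rpl38 (0.20) on stiff were the next highest in aged cells, and Rps16 (-0.27), Rps4x (-0.26) and Rpl3 (-0.26) on stiff the next lowest. Rpl3 was lower in aged than in young cells within Myog-low and Myog-middle cells on stiff and higher within Myog-high cells, by the class values given above, and the share of Myog-middle cells was 25.6% in young stiff and 43.7% in aged stiff.

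**Figure D5:**
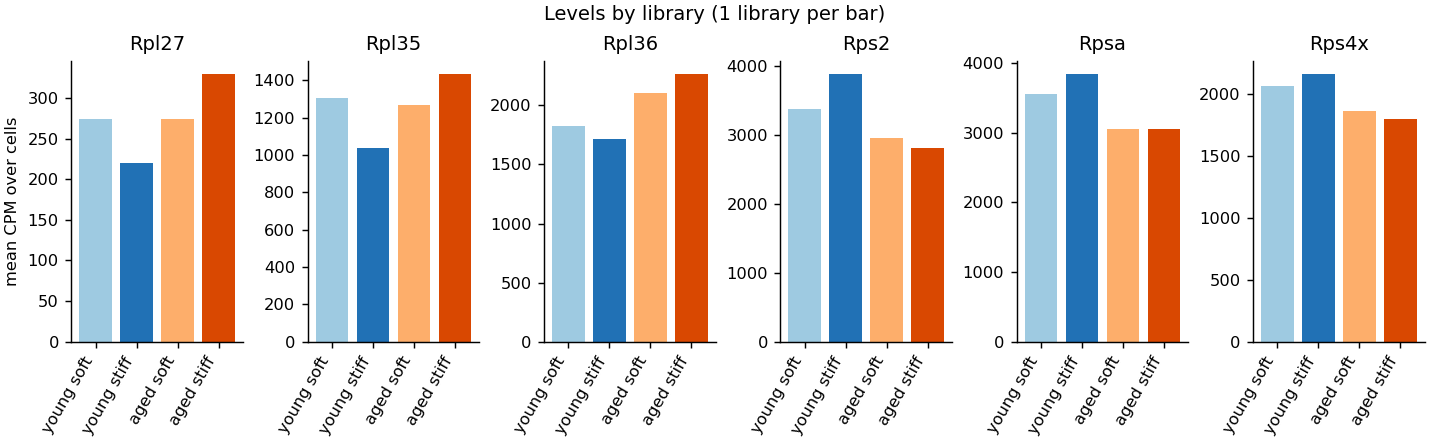
Mean CPM over cells of 6 members in the 4 libraries, a bar for each library, with axes from 0 and no error bars because each group is 1 library. Rps2 and Rpsa are lower and Rpl36 is higher in both aged libraries, while Rpl27 and Rpl35 are lowest in young stiff and highest in aged stiff.

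Many members share sequence with processed pseudogenes, so reads could be split between copies by the counting. Among stretches of 30 bases from the final 500 of each member's GENCODE vM21 transcript, the end that 3′ libraries read, a median of 61.4% also occurred in a transcript of another gene. The share was over 50% for 47 members and under 10% for 12. It was 81.1% for Rpl27, 84.9% for Rpl35, 94.6% for Rpl36, 84.9% for Rps2, 85.6% for Rpl3 and 93% for Rpl10a, whose levels are therefore uncertain. It was 1.49% for Rpsa, 3.82% for Rpl12 and 22.7% for Rpl13a. The transcript taken was the one with the longest coding sequence, and its 3′ end need not be the one these cells use. It had 1938 bases for Rpsa, of which 885 code, and 1242 for Rpl12, of which 495 code. A low share therefore does not show that the counts of a member were free of reads from copies. Of the 30 tested members with at most 50%, 23 fell and none rose from Myog-low to Myog-middle, with Rpl12 and Rpl13a among those that fell, and 1, Rpsa, passed the threshold between aged and young on stiff. The 4 members that rose in Myog-middle cells all lay above 50%.

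Lists of other genes of the translation machinery gave the following values beside those of the members. Of the ribosome biogenesis genes, which process and assemble ribosomal RNA, 23 of 64 were lower and none higher past the threshold in aged cells on soft (median -0.26), and 17 of 63 were lower on stiff (median -0.21), against 28.1% and 29.5% of all genes lower. Of 12 tested genes on a list of elongation factors and proteins near them, 1 was lower on each substrate. This was Pabpc1, named here after its values were seen, which encodes a poly(A)-binding protein and no elongation factor, at 474, 456, 249 and 234 CPM. In Mki67-detected cells Pabpc1 rose by 1.19 ± 0.090 (limma adjusted p = 2.61e-05). Of 42 initiation factors 3 were lower and 1 higher on soft, 4 and 1 on stiff. The helicase Eif4a1 was among those lower on stiff, at 506, 511, 417 and 403 CPM, and it fell by 1.09 on the log2 scale from Myog-low to Myog-middle cells (limma adjusted p = 5.41e-05). Of the mitochondrial ribosomal proteins, which serve the separate ribosomes of mitochondria, 7 of 76 were higher on soft and 5 of 75 on stiff, against 9.87% and 11.1% of all genes. From Myog-low to Myog-middle cells 44 of 63 biogenesis genes fell and 7 rose (median -0.43), while 9 of 75 mitochondrial ribosomal proteins fell and 30 rose (median 0.080). Of all genes 56.1% fell and 27.8% rose there, with a median of -0.27. In Mki67-detected cells 43 of 65 biogenesis genes rose and 6 fell, and within Myog-low cells 29 of 64 rose and 1 fell. Of all genes 55.6% rose and 25.9% fell in the first of these contrasts and 30.4% and 17.4% in the second. The genes of RNA polymerase I, which transcribes ribosomal RNA, rose in 8 of 9 cases in Mki67-detected cells and in 6 of 9 within Myog-low cells. Of 42 initiation factors 22 rose and 5 fell in Mki67-detected cells, a share rising close to that of all genes. Growth signalling genes in aged cells were lower in 2 and higher in 4 of 14 cases on soft (median 0.067). On stiff they were lower in 5 and higher in 3 of 15 cases (median 0.11). Of all genes 28.1% were lower and 9.87% higher on soft, and 29.5% and 11.1% on stiff. The kinase gene Mtor, with 25.6, 26.4, 38.2 and 44 CPM, rose by 0.90 ± 0.088 from Myog-low to Myog-middle cells (limma adjusted p = 2.87e-04). Of 10 p53 targets, read beside Rps27l, 3 rose and 6 fell in Mki67-detected cells (median -0.33). Within Myog-low cells 1 rose and 2 fell (median -0.017). In the contrast over all cells Cdkn1a, the cell cycle inhibitor p21, fell by 2.03 on the log2 scale (limma adjusted p = 3.79e-06), and Bax, which promotes apoptosis, rose by 0.60 ± 0.080 (limma adjusted p = 3.83e-04).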

How the data were processed

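Single cells were captured with 10x Chromium (Single Cell 3′ kit, version 3), per the labels' protocols. The submitters' processing notes name Cell Ranger 6.1.2 and Partek and no roles for them. Build, annotation and filters of the authors are not given there. The values the authors deposited are log2(CPM + 1), per cell, of 13772 genes, as read from the values. UMI counts were recovered from their steps, and over 99.9% came out whole within 0.05. No doublet caller was run, so doublets remain.

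Kept were cells with 500 or more genes and no more than 20% mitochondrial UMIs, which left out 3 cells. Library levels are mean CPM, log2 ratios use a pseudocount of 5, genes need 20 CPM in 1 of both libraries, and a call is a log2 ratio beyond 0.32 (25%). The log2(value + pseudocount) scale understates changes of low genes. UMI ratios have exact conditional binomial intervals, which cover counting error only. Cell classes were compared within libraries by limma 3.58.1 (two-sided, with trend and library as block) on log2 of mean CPM plus 5 per class, adjusted by Benjamini-Hochberg over all genes, after it was tested on simulated data. Here n is 4 libraries, which differ in age and substrate, and it is not stated which came from separate cultures, so these p-values measure only the spread between these libraries. In the simulated data few genes changed, in balanced directions and by the same fold in every library. In the class contrasts between 47.8% and 83.9% of genes were called, so the simulation does not show how calls behave in them. Alternatives changed the scaling, pseudocount, filters, class limits, fold and libraries.

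Members, gene lists and tests were chosen with earlier results of these data known. Members named are taken from the 5 with the largest and the 5 with the smallest ratio in each comparison, the 5 highest and 5 lowest in level, and the paralogs ending in l or x with their partners, and up to 4 genes of each other list. The contrasts with Myog-middle cells and within Myog-low cells were added after seeing the data and follow the same rule. Protein sequences were not used here, and the values of some single genes are not reported here.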

Additional observations from a re-analysis of the deposited data

Results flagged for a closer look

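Rpl27 and Rpl35 had opposite signs of the stiff against soft log2 ratio in young and aged cells, each beyond counting error. For Rpl27 the ratio was -0.31 in young and 0.26 in aged cells, a difference of 0.57, and the UMI ratios were 0.806 (95% 0.785 to 0.828) and 1.19 (95% 1.17 to 1.22). For Rpl35 it was -0.33 and 0.18, a difference of 0.51, with UMI ratios of 0.797 (95% 0.787 to 0.806) and 1.12 (95% 1.11 to 1.13). With 1 library per group neither difference was tested. About 81.1% of the 30-base stretches at the 3′ end of Rpl27 and 84.9% of those of Rpl35 also occur in other genes, and the part of this in the result was not tested.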

How the results depend on the processing

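No library could be left out between libraries, since each group has 1, and no paired analysis was possible for those comparisons because they come from no test; the class contrasts hold the library as block throughout. Between substrates in young cells the count of members past the threshold went from 1 to 0 under median-of-ratios scaling, under a fold of 1.5 and among members with at most 50% shared sequence. Between ages on soft it went from 0 to 7 under median-of-ratios scaling and to 1 in Myog-low cells. Between ages on stiff it went from 5 to 8 under that scaling, to 3 in Myog-high cells, to 0 at a fold of 1.5 and to 1 among members with at most 50% shared sequence.

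The ribosomal protein share, in the order of libraries used above, was 15.6, 15.7, 15.9 and 15.3% with summed UMIs, 15.8, 15.7, 15.8 and 15.4% in cells of 20000 to 50000 UMIs, 16.7, 16.9, 16.9 and 16.5% without mitochondrial UMIs and 16.9, 17.1, 17.8 and 17.5% without sarcomere genes. It was 16 and 15.6% in aged cells on soft and stiff with cells under 1% mitochondrial UMIs left out.

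Without the sarcomere genes in the total, 12 members rose and 36 fell in Mki67-detected cells (median -0.062), 1 and 35 within Myog-low cells, 14 and 11 in Myog-high cells (median 0.032), and 12 and 28 in Myog-middle cells. Both medians changed sign, as did Rpl39 in Mki67-detected cells (-0.067) and Rps27 in Myog-middle cells (0.0088). Within Myog-low cells 28.2% of all genes rose and 20.6% fell on this total, and the shares for the other contrasts are given above. Among members with at most 50% shared sequence, a smaller set by construction, the counts were 15 and 3, 1 and 7, 1 and 20, and 0 and 23 in the same order. At 3 or more Mki67 UMIs 25 members rose and 14 fell, where 54.5% of all genes rose and 25.8% fell. After thinning to 2000 UMIs 15 members rose and 18 fell, where 51.1% of all genes rose and 24.5% fell. From Myog-low to Myog-high cells 2 members rose with no filter on low values, 1 without the trend and 0 with summed UMIs. With ribosomal protein and mitochondrial genes out of the total 1 rose. Of all genes 17.6, 24.4, 22.7 and 22.7% rose under these settings. In the same contrast 0 members rose and 16 fell with tertiles within each library, where 17.9% of all genes rose and 40.4% fell. With tertiles drawn anew among cells without Mki67 UMIs 1 rose and 10 fell, where 21.7% of all genes rose and 34.4% fell. The small to large ratio differed there by -0.0077. With the Myog cuts of all cells kept, an alternative added after seeing the data, 0 rose and 44 fell among cells without Mki67 UMIs. The ratio differed by -0.025, and of all genes 23.9% rose and 44.4% fell.

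With each library left out, 21 to 30 members rose and 5 to 11 fell in Mki67-detected cells, 0 to 2 and 2 to 27 within Myog-low cells, 0 to 2 and 21 to 27 in Myog-high cells, and 4 to 4 and 52 to 55 in Myog-middle cells. Within Myog-low cells Rpl3 changed sign without aged stiff (-0.047, range -0.047 to 0.095 over the libraries left out), and Rps4x without young soft (4.9e-04), without young stiff (0.013; range -0.098 to 0.013) and in cells of 20000 to 50000 UMIs (0.020), each with an adjusted p above 0.05 there. The causes of these changes were not tested. Alternatives were read for 44 pairs of a named member and a class contrast. Over these, 415 values kept direction and side of the threshold, 60 lost the call, 9 gained it and 6 reversed. With 1 library per group, depth limits only the counting error, and no value here gives the spread between cultures.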

Other observations

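Ribosomal protein genes outside the symbol rule were read as well. Rpl22l1, a paralog of Rpl22, had 474, 427, 429 and 375 CPM, in the order of libraries used above. From Myog-low to Myog-middle cells it fell by 1.5 ± 0.071 on the log2 scale (limma adjusted p = 3.04e-05), from a mean of 605 to 209.7 CPM over libraries. Rpl22, named here as its partner, changed by -0.23 ± 0.037 in that contrast (limma adjusted p = 0.00187), and the difference between the paralogs was not tested. In Mki67-detected cells Rpl22l1 rose by 0.65 ± 0.047 (limma adjusted p = 1.92e-05).

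The gene model Gm10076, which shares most of the words that Rpl41 shares with any gene, had 837, 526, 596 and 1108 CPM, and Rpl36al had 189, 167, 170.4 and 211 CPM. Both were lowest in young stiff and highest in aged stiff, as were Rpl27 and Rpl35, and the median depth per cell was lowest and highest in the same libraries. The part of depth or of the sharing of reads in these values was not tested. Fau, which encodes Rps30 with a ubiquitin-like protein, had 2038, 2142, 2268 and 2161 CPM and Rps3a1 had 2117, 2129.7, 2080.4 and 2015 CPM.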
